A study of Bos taurus with 15 samples.

Results

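Bovine (Bos taurus) oocytes that had been vitrified in liquid helium at 2 concentrations of a cryoprotective agent, 6.6 M and 5.6 M, were compared across all genes. The comparison used 6 of the 15 RNA sequencing libraries of the series, 3 at each concentration, chosen by their labels alone. It bears on one of the questions the series title names, how cryoprotectant concentration affects the oocyte transcriptome. No gene passed the test between the concentrations, so each gene below is given by its values, as a difference that did not pass unless stated otherwise. The smallest p belonged to FIGLA, an oocyte transcription factor whose level was higher in all 3 libraries at 6.6 M. One 6.6 M library also carried more RNA of several genes that are not oocyte markers.

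A fully grown oocyte holds a store of maternal mRNA, built up during growth, that supports meiotic maturation and the first embryonic divisions while its own transcription is low. Vitrification turns the water of a cell into a glass by very fast cooling, with much cryoprotectant present to keep ice from forming. A higher concentration makes the glass easier to form but exposes the cell to more solute and osmotic stress, while a colder coolant cools faster. The meiotic spindle, mitochondria, calcium stores, membranes and lipid droplets are the parts of the oocyte usually named as sensitive to this treatment.

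The groups were helium 5.6 M (libraries 3, 4 and 5, by their numbers in the labels) and helium 6.6 M (libraries 1, 2 and 3). All libraries of the series, vitrified or fresh, were labelled as oocytes matured in vitro in a medium with serum, gonadotropins, cysteine and follicular fluid, for 22 to 24 h at 38.5 °C. Cumulus cells, which surround the oocyte and nourish it, were then removed with 100 IU/mL hyaluronidase. The series title calls the oocytes immature, which differs from these labels, and the labels do not name the cryoprotective agent. RNA was extracted from single cells according to the labels, which do not say whether a library held 1 oocyte or several, nor whether replicates came from separate animals or cultures. A p-value here therefore speaks of the spread among libraries only, and that spread may be technical. The same 2 concentrations in liquid nitrogen, 3 libraries each, and the 3 fresh libraries entered the same statistical fit.

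The 6 helium libraries had similar depth. Totals spanned 6346848 to 8569618 counts in the 5.6 M group and, more narrowly, 6906940 to 7330690 in the 6.6 M group. The 3 fresh libraries, whose levels are given beside some genes below, were shallower, at 1601519 to 2822837 counts. The number of genes at 1 FPKM or more, a unit that corrects counts for transcript length and depth, was 9329, 9227 and 8988 at 5.6 M and 9241, 9662 and 9141 at 6.6 M. The groups overlapped, with a difference of 167 genes (two-sided exact permutation p = 0.5, where 3 against 3 libraries cannot go below 0.1). Oocyte identity was plain in every library: 9 oocyte markers were in the table, among them the growth factors GDF9 and BMP15 and the zona pellucida gene ZP2, and their summed level was 6913 to 8325 CPM (counts scaled to library size with TMM factors) at 5.6 M and 6724 to 8155 CPM at 6.6 M. ZP2 alone was at 2854, 3185 and 3788 CPM at 5.6 M and 3205, 2860 and 2830 CPM at 6.6 M.

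Library 2 of the 6.6 M group stood apart from the other 5. The distance between a pair of libraries, taken as the median absolute log2 difference over 8441 genes, was 0.20 to 0.26 within 5.6 M. Within 6.6 M it was 0.20 between libraries 1 and 3, but 0.33 for both pairs with library 2. The closest pair of all crossed the concentrations, 5.6 M library 4 and 6.6 M library 1 at 0.15, and the farthest was 5.6 M library 5 and 6.6 M library 2 at 0.45. Library 2 was the highest of the 6 libraries in 2738 genes (32.4%) and the lowest in 2553 (30.2%). For 5.6 M library 5 these shares were 24.2% and 23.1%, and for the other 4 libraries they lay between 8.47% and 13.4%. Fold changes and list medians are therefore also given without library 2 where they moved with it. The median SD of log2 levels was 0.197 at 5.6 M and 0.249 at 6.6 M.

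**Figure D1:**
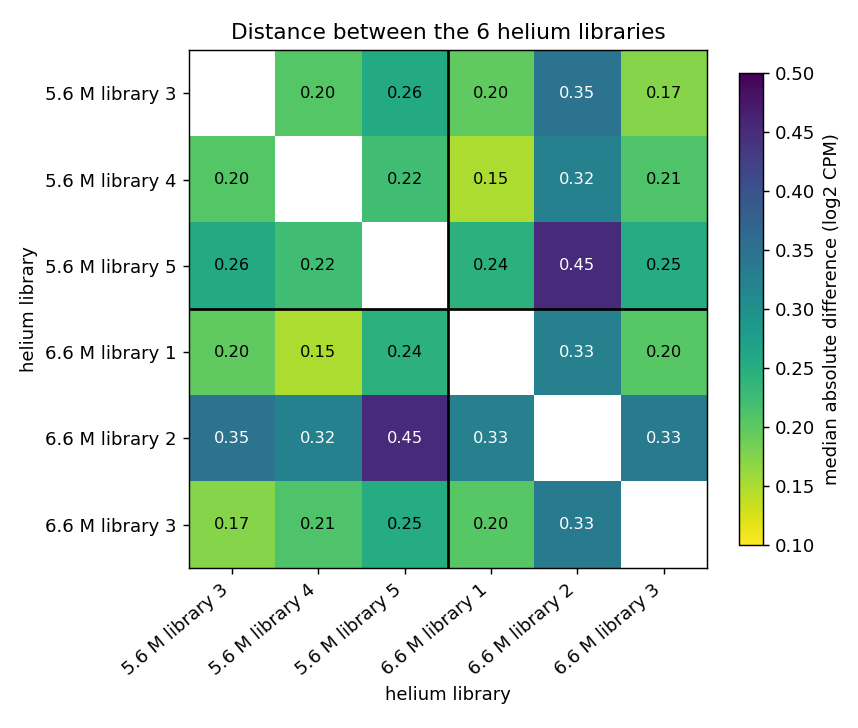
Median absolute difference in log2 CPM over 8441 genes for each pair of helium libraries, labelled by concentration and library number on both axes; black lines separate the concentrations. Pairs across the lines reach from 0.15 to 0.45, and all pairs above 0.30 include 6.6 M library 2.

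Between 6.6 M and 5.6 M, 0 of 8441 tested genes (0%) passed edgeR's quasi-likelihood test at a Benjamini-Hochberg adjusted p of 0.05. Without adjustment 169 genes (2%) had p under 0.05, of which 104 were higher and 65 lower at 6.6 M. The smallest unadjusted p was 0.000497, for FIGLA, and the smallest adjusted p was 1 after rounding. DESeq2 called 0 genes (175 without adjustment), limma-voom 0 (295), and edgeR on the helium libraries alone 0 of 9694 (454, or 4.68%, without adjustment). Gene levels did not overlap between the groups in 804 genes (9.52%), 436 higher (5.17%) and 368 lower (4.36%) at 6.6 M. With no difference, 3 against 3 libraries would separate by grouping alone in a share of 0.1 of genes. Lack of overlap therefore marks no gene out by itself. The 2% with an unadjusted p under 0.05 also lay below the share of 0.05 that no difference would give.

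The 95% intervals bounded the size of the difference gene by gene. The fold changes were small. TMM scaling centres them near 0, so the even split, with 4259 genes (50.5%) above 0, is no result about concentration. The median absolute log2 fold change was 0.18. For 95% of genes it was under 0.56, a 1.48-fold difference, and 33 genes exceeded a 2-fold difference. The 95% interval of the fold change lay wholly within 2-fold for 6500 genes (77%), within 1.5-fold for 1957 (23.2%), and within 4-fold for 8403 (99.5%). Precision followed abundance. When genes were split into 3 equal bins by level, the share bounded within 2-fold was 49.1% in the lowest bin (median 5.42 CPM), 85.3% in the middle bin (23.1 CPM) and 96.7% in the highest bin (129 CPM). For a weakly expressed gene, a 2-fold difference was thus often not bounded. The intervals are per gene and not adjusted for the number of genes tested. The adjusted test is stricter and could also miss a 2-fold difference in more abundant genes. FIGLA, at a 2.41-fold difference, did not pass it.

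**Figure D2:**
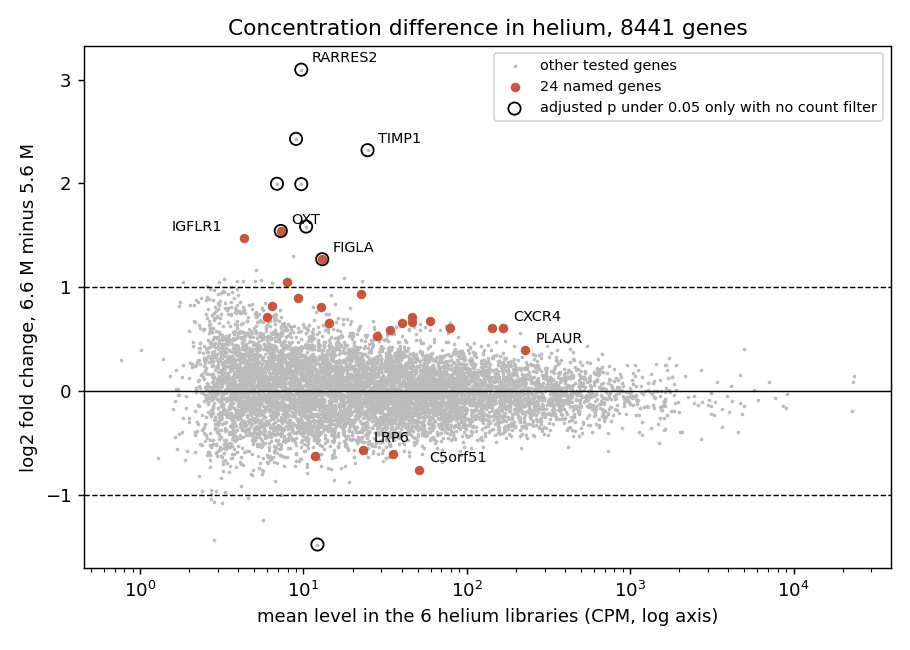
Log2 fold change (6.6 M minus 5.6 M in helium, vertical axis) against mean level in the 6 helium libraries (CPM, log axis) for the 8441 tested genes. Dashed lines mark a 2-fold difference; red points are the 24 named genes, and ringed points are the 9 tested genes that reached an adjusted p under 0.05 only when no count filter was applied.

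FIGLA had the smallest p of all tested genes. It encodes a basic helix-loop-helix transcription factor of the oocyte that activates the zona pellucida genes, and lies on UMD3.1 chromosome 11 at 13612910 to 13619093. Its levels were 9.03, 7.26 and 6.53 CPM at 5.6 M and 12.1, 18 and 25.3 CPM at 6.6 M. All 3 libraries at 6.6 M were above all 3 at 5.6 M, and the highest was library 3, not library 2. The log2 fold change was 1.27 (SE 0.30, 95% interval 0.63 to 1.91), a 2.41-fold difference, with an adjusted p of 1 by edgeR. Without 6.6 M library 2 it was 1.29. Fresh oocytes had FIGLA at 12.3 ± 3.56 CPM (SD, n = 3; 10.0 to 16.4), so that the 5.6 M libraries lay below the fresh range. At 6.6 M, library 1 lay within that range and libraries 2 and 3 above it. The zona pellucida genes ZP2 and ZP4 had log2 fold changes of -0.14 and 0.11, each with an interval that spans 0.

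The 24 genes of smallest unadjusted p that had a symbol and a group mean of 5 FPKM or more were examined further: 20 were higher and 4 lower at 6.6 M, and none passed the test. In 18 of them the groups did not overlap, and in 19 library 2 was the highest of the 6. These counts describe genes picked by p in this same contrast and support nothing further.

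The 4 lower genes included LRP6, a co-receptor of Wnt ligands, at 26.9, 26.6 and 29.4 CPM at 5.6 M and 20.8, 13.8 and 21.4 CPM at 6.6 M. C5orf51 had 51.8, 49.9 and 89.8 CPM against 44.8, 25.1 and 43.5 CPM. In both, the 6.6 M libraries were all below the 5.6 M libraries and library 2 was the lowest. TAOK1, a protein kinase that acts on stress kinase pathways, showed the same order with 33.8 to 55.4 CPM at 5.6 M and 20.4 to 32.0 CPM at 6.6 M. The log2 fold changes ran from -0.75 for C5orf51 to -0.56 for LRP6, and without library 2 from -0.53 to -0.38. C5orf51 and TAOK1 also rested on 5.6 M library 5, the highest for both: without it their log2 fold changes were -0.43 (from -0.75) and -0.37 (from -0.60).

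The higher genes included the receptors CXCR4 and PLAUR. CXCR4, the receptor of the chemokine CXCL12, was at 159, 133 and 102 CPM at 5.6 M and 174, 235 and 194 CPM at 6.6 M. PLAUR, the urokinase receptor, was at 200, 199 and 186 CPM against 249, 297 and 225 CPM. Both were separated by concentration, with log2 fold changes of 0.61 (SE 0.23) and 0.40 (SE 0.16), which were 0.48 and 0.28 without library 2.

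Several genes of mitochondria, redox and small-molecule metabolism were also among them. ALKBH7, a mitochondrial dioxygenase, had 47.1, 47.9 and 42.6 CPM at 5.6 M and 58.8, 95.8 and 65.3 CPM at 6.6 M. MRPS24, a protein of the small mitochondrial ribosomal subunit, had 11.1, 9.07 and 7.84 CPM against 12.9, 21.9 and 14.5 CPM. GCH1, the first enzyme of tetrahydrobiopterin synthesis, had 132, 122 and 84.3 CPM against 126, 239 and 152 CPM. The groups were separate for ALKBH7 and MRPS24 and overlapped for GCH1. Without library 2 the log2 fold change of GCH1 was 0.30 (from 0.61), that of ALKBH7 0.43 (from 0.68) and that of MRPS24 0.54 (from 0.81). SEPW1, which encodes the antioxidant selenoprotein W, was at 14 to 18 CPM and 16.4 to 39.4 CPM, again with overlap.

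The remaining higher genes fell into separate roles. NENF, a secreted heme-binding protein, was at 6.42, 7.90 and 4.90 CPM at 5.6 M and 12.4, 14 and 9.71 CPM at 6.6 M. LAMTOR4, a subunit of the lysosomal Ragulator complex, had 5.55, 6.09 and 3.76 CPM against 6.57, 17.0 and 8.64 CPM. NXT1, a partner of the mRNA export receptor, had 27.8, 38.6 and 26.8 CPM against 39.0, 66.4 and 41.9 CPM. These 3 did not overlap, and library 2 was the highest in each. Their log2 fold changes of 0.90, 1.05 and 0.66 were 0.78, 0.56 and 0.38 without it. CCDC84, FAM193A, MYF6, MS4A8, PPP1R35 and PRADC1 were separate between the groups as well, with log2 fold changes of 0.54 to 0.82, or 0.37 to 0.59 without library 2. KBTBD3, RP9 and IGFLR1 overlapped. Their log2 fold changes of 0.67, 0.59 and 1.47 were 0.41, 0.33 and 0.79 without library 2. OXT, the oxytocin precursor, had the largest value of the 24 and rested on one library: it was at 5.11, 2.98 and 2.94 CPM at 5.6 M and at 3.43, 25.8 and 3.32 CPM at 6.6 M. Its log2 fold change of 1.54 became -0.14 without library 2.

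**Figure D3:**
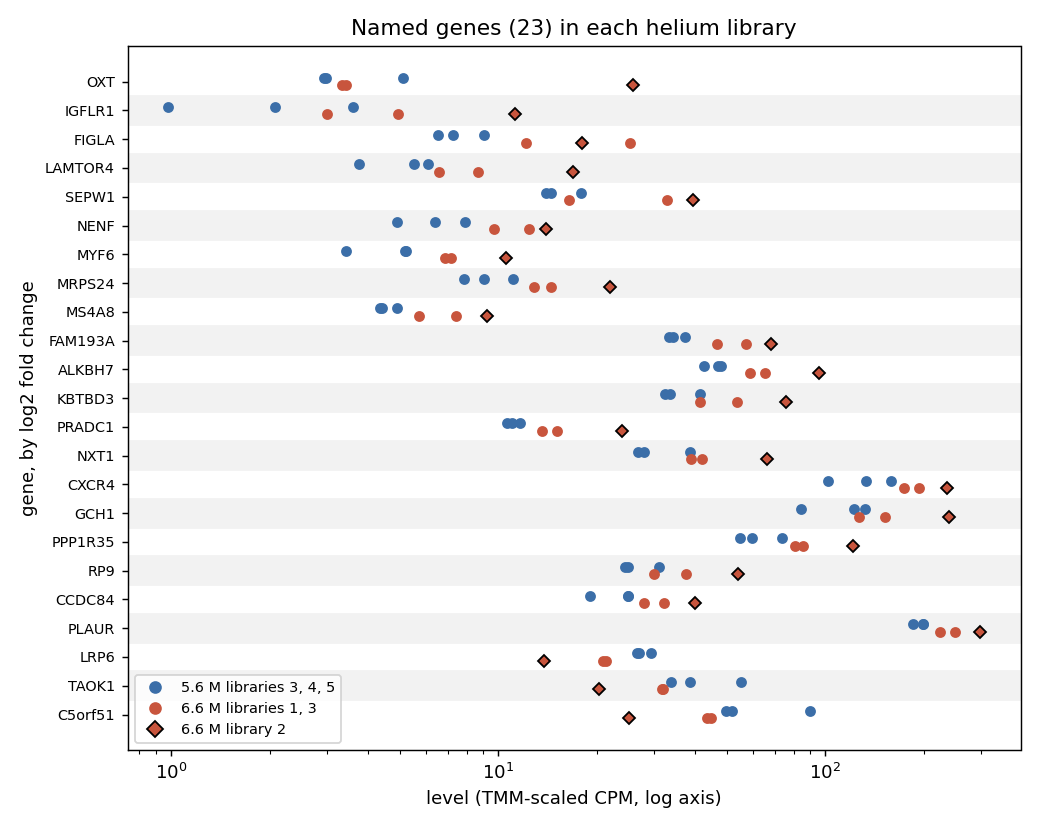
Level (TMM-scaled CPM, log axis) of 23 of the 24 named genes in each helium library: blue circles are 5.6 M libraries 3, 4 and 5, red circles 6.6 M libraries 1 and 3, and outlined diamonds 6.6 M library 2. The diamond is the rightmost point in 19 genes and the leftmost in the 3 plotted genes that were lower at 6.6 M; FIGLA is the exception, with library 3 highest.

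Of the 169 genes with an unadjusted p under 0.05, 88 had library 2 as the highest of the 6 libraries. Over all genes, 27 had an unadjusted p under 0.05 without library 2, and 19 of these were among the 169. The remaining libraries are shared with the full comparison, so this overlap is a description only. FIGLA and C5orf51 were the named genes among the 19.

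Genes that set library 2 apart became visible when no filter on low counts was applied. In that fit 15 of 16294 genes passed at an adjusted p of 0.05 by edgeR, 14 higher and 1 lower at 6.6 M, and library 2 was the highest of the 6 in 13 of them. TIMP1, an inhibitor of matrix proteases that granulosa cells secrete, was at 10.5, 0.907 and 13.4 CPM at 5.6 M and at 0, 117 and 6.52 CPM at 6.6 M. RARRES2, which encodes chemerin, was at 3.81, 0 and 2.12 CPM against 0, 48.0 and 4.26 CPM. POSTN, a matrix protein, was at 5.22, 0 and 3.1 CPM against 0, 34.8 and 10.9 CPM. In each gene one 6.6 M library was at 0 while library 2 was far above the rest, so the group means rest on library 2. With the count filter the log2 fold change of TIMP1 was 2.32 with a 95% interval of -0.45 to 5.09 and an adjusted p of 1 by edgeR.

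The other genes of that group followed the same course. The immediate early genes FOS and EGR1, which cells induce within minutes of a stimulus, were at 31.1 and 28.2 CPM in library 2 and at 1.17 to 4.12 and 1.71 to 3.37 CPM in the other 5 libraries. VIM, an intermediate filament of somatic cells, was at 15.1 CPM in library 2 and at 0 to 1.99 CPM elsewhere. MFGE8, a secreted glycoprotein, was at 29.6 CPM in library 2 and at 0.714 to 3.27 CPM elsewhere. MRO, NTS, TMEM176A, IFITM3, OXT and 1 gene without a symbol, ENSBTAG00000038326, were highest in library 2 too. FIGLA was the only one of the 15 whose groups did not overlap, and ENSBTAG00000009900 was the single lower gene, with 1.74 to 32.4 CPM at 5.6 M and 1.44 to 14.9 CPM at 6.6 M.

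Markers of cumulus and granulosa cells were measured in the same libraries. Of 13 defining markers in the table, the granulosa genes FSHR and FOXL2 were at 0 in all 6 libraries. The summed level of the 13 was 153 to 192 CPM at 5.6 M, and 161, 330 and 194 CPM in 6.6 M libraries 1, 2 and 3. TIMP1 made up 117 CPM of the sum in library 2. Without TIMP1 the sums were 152 to 182 CPM at 5.6 M and 161, 214 and 187 CPM at 6.6 M. The wider cumulus and granulosa list, 40 genes in the table, did not peak in library 2. It summed to 2931, 4605 and 3705 CPM at 5.6 M and 4945, 4282 and 2898 CPM at 6.6 M, with 6.6 M library 1 the highest. The 13 defining markers summed to far less, so the list sum mostly reflects its other members and says little about these 13. HAS2, which makes the hyaluronan of the expanding cumulus, was at 75.3 to 110 CPM in all 6 and lowest in library 2. TNFAIP6, which cross-links that hyaluronan, was at 7.94, 0.130 and 6.86 CPM at 5.6 M and at 0, 27.8 and 9.04 CPM at 6.6 M. Blood and immune markers, 7 of 20 at 0 in all 6 libraries, summed to 58.2 to 81.2 CPM and 82.1 to 113 CPM, with library 2 the highest. Most of this was SPP1, a secreted phosphoprotein that other cells also make, and without it the sums were 18.4 to 22.3 CPM and 19.0 to 25.7 CPM. Whether these cells contributed to the values of library 2 was not tested, and in RNA of whole samples more cells of a type cannot be told apart from more RNA per cell.

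To describe the biology that vitrification is thought to touch, 22 gene lists with 729 distinct tested genes were read as groups. None of their genes passed the test in either direction, and 16 (2.19%) had an unadjusted p under 0.05, beside 2% of all tested genes. The list medians ran from -0.14 to 0.29 in log2 fold change, beside a median of 0.00 over all genes. In 9 lists the median had the same sign under all 13 alternatives, and in 13 it changed sign in at least 1. The alternatives reuse the same helium libraries, so a kept sign is no replication.

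Oocyte-specific genes lay on both sides of 0. Of 29 tested oocyte-specific and maternal-effect genes, 16 were above 0, with a median of 0.04 that was -0.01 without library 2. NPM2, a nuclear chaperone needed after fertilization, was at 457, 583 and 798 CPM at 5.6 M and 531, 464 and 476 CPM at 6.6 M. DDX4, the germ cell RNA helicase, was at 26.5, 22.9 and 32.7 CPM against 23.7, 14.7 and 23.0 CPM. Both overlapped between the groups, with log2 fold changes of -0.32 and -0.42, or -0.28 and -0.23 without library 2.

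Regulators of stored maternal mRNA were mostly below 0. Of 54 tested genes of maternal mRNA storage and decay, 12 were above 0 and 42 below, with a median of -0.11 that kept its sign in all 13 alternatives and was -0.07 without library 2. SMG1, a kinase of nonsense-mediated decay, was at 77.2, 102 and 145 CPM at 5.6 M and 83.1, 53.0 and 82.1 CPM at 6.6 M. DCP2, the decapping enzyme, was at 46.5, 52.6 and 65.3 CPM against 45.8, 37.8 and 44.6 CPM. SMG1 overlapped between the groups and DCP2 did not, with log2 fold changes of -0.57 and -0.36, or -0.39 and -0.28 without library 2. The summed level of the list was 30012 to 39620 CPM at 5.6 M and 23279 to 35437 CPM at 6.6 M, so that the sums overlapped.

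Meiotic and spindle genes, which serve chromosome segregation, were close to 0. The 48 meiotic cell cycle genes had a median of -0.01 with 23 above 0, and the 47 spindle and cytoskeleton genes a median of -0.07 with 19 above 0. SGO1, which protects centromeric cohesion, was at 630, 703 and 823 CPM at 5.6 M and 656, 381 and 659 CPM at 6.6 M. SPC25, a subunit of the kinetochore's NDC80 complex, was at 636, 476 and 454 CPM against 433, 318 and 450 CPM. PRC1, which bundles microtubules of the central spindle, was at 922 to 1725 CPM against 659 to 1196 CPM. Library 2 was the lowest in all 3, and only SPC25 was without overlap. The log2 fold changes of -0.35, -0.38 and -0.39 were -0.13, -0.24 and -0.17 without library 2. RAC1, a small GTPase of the actin cortex, was higher, at 65.8 to 81.9 CPM and 78.0 to 138 CPM (log2 fold change 0.52, or 0.27 without library 2). DNA repair genes, 17 of 53 above 0, had a median of -0.06, with FANCD2 of the Fanconi pathway at 43.0, 58.6 and 64.9 CPM against 49.3, 34.3 and 37.9 CPM.

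Genes of energy metabolism were mostly above 0. Of 54 tested nuclear genes of oxidative phosphorylation, 40 were above 0, with a median of 0.13 that was 0.03 without library 2. NDUFB10, a subunit of complex I, was at 3.81, 1.81 and 1.47 CPM at 5.6 M and 3.71, 6.52 and 4.39 CPM at 6.6 M. ATP5B, the catalytic subunit of ATP synthase, was at 73.4, 74.9 and 63.2 CPM against 78.0, 135 and 77.3 CPM. The groups overlapped for NDUFB10 and were separate for ATP5B, with log2 fold changes of 1.00 and 0.45 that were 0.73 and 0.14 without library 2. Among genes of glycolysis and the citrate and pentose phosphate cycles, 25 of 32 genes were above 0, with a median of 0.16 (0.03 without library 2). ALDOA, a glycolytic aldolase, was at 2.78 to 3.37 CPM at 5.6 M and at 3.43, 14.7 and 3.06 CPM at 6.6 M, and its log2 fold change of 1.17 was 0.04 without library 2. TALDO1, the transaldolase, was at 15.9 to 16.2 CPM against 19.7 to 23.4 CPM, without overlap.

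Mitochondrial transcripts overlapped between the concentrations. Genes of the mitochondrial genome took 3.63%, 4.05% and 3.57% of counts at 5.6 M and 4.21%, 2.79% and 3.76% at 6.6 M, with library 2 the lowest and library 1 the highest. The difference was -0.160 percentage points (two-sided exact permutation p = 0.9). Of the 13 mitochondrially encoded protein genes, 6 were above 0, with a median of -0.01 that was 0.17 without library 2. COX1 was at 4286, 5382 and 5846 CPM at 5.6 M and 5127, 3148 and 5074 CPM at 6.6 M. ATP6 was at 5544, 5828 and 1423 CPM against 6898, 3842 and 6202 CPM, where 5.6 M library 5 was the low one.

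Of 30 antioxidant genes 18 were above 0, with a median of 0.08 (0.01 without library 2). An unadjusted p under 0.05 by edgeR was found for 3, beside 2% of all genes, and 3 were without overlap, beside 9.52% of all genes. PRDX2, a peroxiredoxin that removes hydrogen peroxide, was at 354, 422 and 396 CPM at 5.6 M and 532, 480 and 511 CPM at 6.6 M. GLRX5, a mitochondrial glutaredoxin of iron-sulfur cluster assembly, was at 9.79, 8.94 and 6.53 CPM against 11.3, 15.3 and 11.8 CPM. PRDX5 was at 22.7 to 29.4 CPM against 29.3 to 49.1 CPM. PRDX2 and GLRX5 did not overlap, and library 2 was the lowest of the 6.6 M libraries for PRDX2. Their log2 fold changes were 0.38 (95% interval 0.02 to 0.73) and 0.59 (0.06 to 1.13), or 0.42 and 0.45 without library 2. That of PRDX5 was 0.51, or 0.26 without library 2. PRDX6, another peroxiredoxin, was also separate, at 81.5 to 91.4 CPM and 94.1 to 124 CPM, with a log2 fold change of 0.31, or 0.20 without library 2.

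Chaperone, unfolded protein and apoptosis genes had medians near 0. Of 34 heat shock proteins and chaperones 15 were above 0 (median -0.05), of 32 genes of the unfolded protein response 15 (-0.02), and of 24 apoptosis regulators 10 (-0.02). The small heat shock protein HSPB1 was at 17.8, 11.9 and 12.6 CPM at 5.6 M and 14.6, 42.1 and 12 CPM at 6.6 M, high in library 2 alone, and its log2 fold change of 0.69 was -0.10 without that library. SEL1L, a scaffold of endoplasmic reticulum degradation, was at 12 to 12.6 CPM against 7.05 to 9.71 CPM, without overlap (log2 fold change -0.57, or -0.55 without library 2). BNIP3L, a mitophagy receptor, was at 108 to 133 CPM against 81.9 to 98.2 CPM, and API5, an apoptosis inhibitor, at 78.3 to 99.5 CPM against 43.1 to 77.8 CPM. Their log2 fold changes of -0.38 and -0.45 were -0.30 and -0.22 without library 2. The immediate early and stress-response genes lay higher, with 16 of 19 above 0 and a median of 0.15, which was 0.03 without library 2. DUSP1, a phosphatase that switches off stress kinases, was at 5.98, 5.57 and 3.1 CPM against 7.0, 10.8 and 6.78 CPM, without overlap.

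Genes that handle solutes, calcium and lipids were examined because the cryoprotectant concentration sets the osmotic load. Of 22 osmotic, water and ion transport genes 8 were above 0, and the median of -0.14 was the lowest of all lists and kept its sign in all 13 alternatives (-0.12 without library 2). SLC12A2, the sodium-potassium-chloride cotransporter, was at 84.6, 94.7 and 126 CPM at 5.6 M and 74.5, 68.2 and 94.3 CPM at 6.6 M. The groups overlapped, with a log2 fold change of -0.36 (95% interval -0.76 to 0.04). Calcium handling and egg activation genes had 12 of 26 above 0 (median -0.03), lipid metabolism 16 of 31 (0.01) and cholesterol synthesis and handling 9 of 23 (-0.03). NPC2, which carries cholesterol out of lysosomes, was at 8.92, 8.16 and 8.17 CPM against 14.7, 13.6 and 11 CPM, without overlap (log2 fold change 0.63, SE 0.27). ACACA, the rate-limiting enzyme of fatty acid synthesis, was at 8.81 to 11.9 CPM against 7.05 to 7.98 CPM.

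The lists with the highest medians had lower medians without library 2. Cytosolic ribosomal proteins had 33 of 41 above 0 and a median of 0.17, which was -0.04 without library 2. Their summed level was 2881, 3074 and 3235 CPM at 5.6 M and 3304, 3953 and 2881 CPM at 6.6 M. Many ribosomal protein genes have near-identical pseudogene copies, and how reads of such copies were assigned is not given in the sources used here. Cumulus and granulosa markers had 11 of 14 above 0 and a median of 0.29, which was -0.03 without library 2. All 4 tested blood and immune markers were above 0, with a median of 0.26 (0.13 without library 2) that kept its sign in all 13 alternatives. SPP1 was at 58.9, 46 and 38.4 CPM against 57.8, 87.7 and 70.5 CPM. Genes of autophagy and the proteasome (33 of 59 above 0, median 0.02) and of DNA methylation and histone modification (21 of 45, median -0.04) were balanced.

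**Figure D4:**
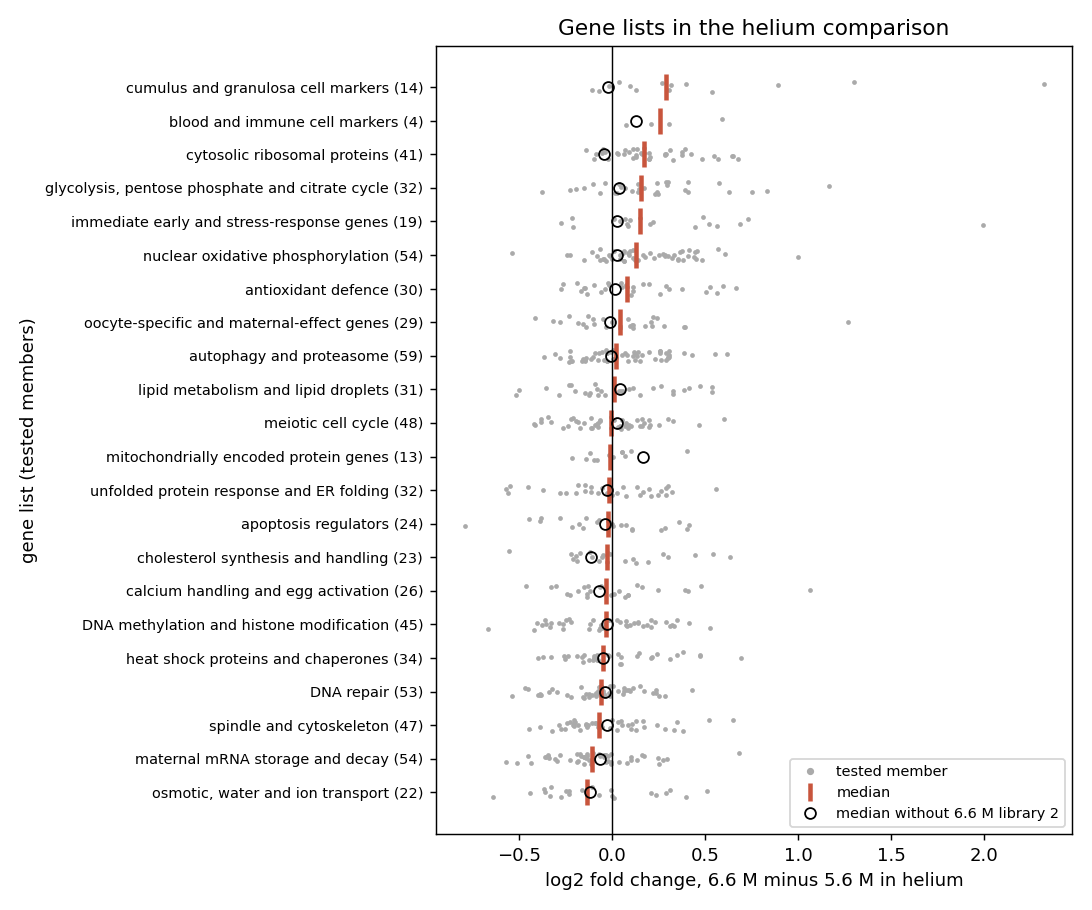
Log2 fold change (6.6 M minus 5.6 M in helium) of each tested member of the 22 gene lists (grey points), with the list median (red bar) and the median without 6.6 M library 2 (open circle); the number of tested members follows each name. Medians lie between -0.14 and 0.29, and the open circles of the ribosomal and cumulus lists lie slightly below 0.

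Fold changes between the concentrations varied with gene length. Genes were split into 3 equal bins by the transcript length that the deposited values imply. The median log2 fold change was 0.09 in the shortest bin, 0.03 in the middle bin and -0.09 in the longest, with 63.5% and 33.7% of genes above 0 in the shortest and the longest. Spearman's rho between length and fold change across the 8441 genes, which share the same 6 libraries, was -0.30. Without library 2 the medians were 0.04, 0.00 and -0.07, and rho was -0.23. In nitrogen the same bins had medians of 0.03, 0.01 and 0.02, and rho was -0.01. Library 2 itself deviated from the mean of the 6 by 0.14 in the shortest bin and -0.10 in the longest, while 5.6 M libraries 4 and 5 deviated in the opposite direction. The libraries did not separate by concentration: 6.6 M library 1 (-0.02 and 0.01) ran the same way as the 5.6 M libraries, and 5.6 M library 3 (-0.01 and 0.00) was nearly flat.

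Length went along with some of the results above. The genes with an unadjusted p under 0.05 had a median length of 1176 bases where they were higher at 6.6 M and 2700 bases where they were lower, beside 2041 bases over all tested genes. The 20 higher named genes had a median of 996 bases, FIGLA being 582 bases long, and the 4 lower ones 2450 bases. Ribosomal protein genes (563 bases) and nuclear genes of oxidative phosphorylation (709 bases) were short. Those of maternal mRNA storage and decay (2842 bases), DNA repair (2751 bases) and osmotic, water and ion transport (2593 bases) were long. Other lists went against this order. Cumulus (2284 bases) and blood markers (2304 bases) had the highest medians, the short mitochondrially encoded genes (781 bases) had a median of -0.01, and DNA methylation and histone modification, the longest list (3623 bases), had -0.04. The part of length in these results was not tested.

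**Figure D5:**
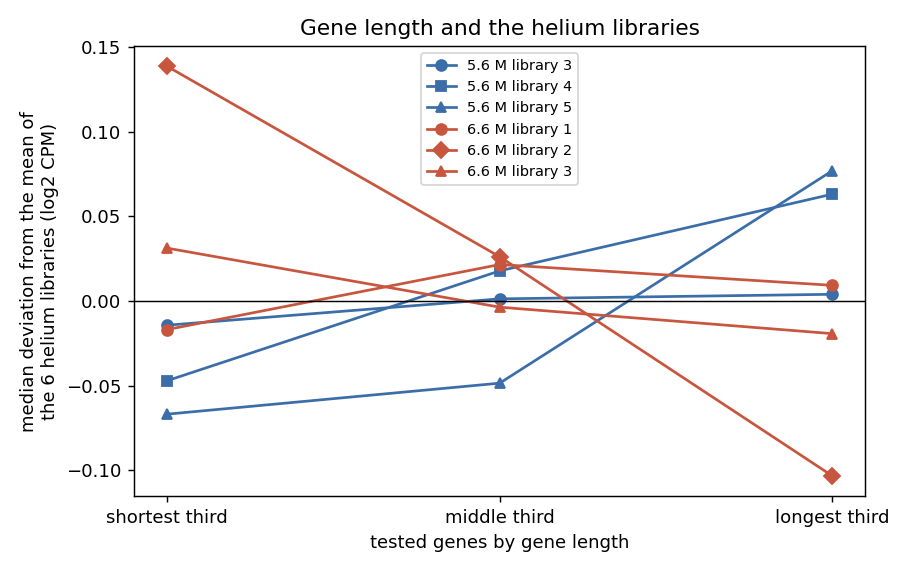
Median deviation of each helium library from the mean of the 6 helium libraries (log2 CPM) for tested genes in 3 bins of gene length; blue lines are 5.6 M and red lines 6.6 M libraries. Library 2 of 6.6 M runs from 0.14 in the shortest bin to -0.10 in the longest, and 5.6 M library 5 from -0.07 to 0.08.

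A further question was whether concentration altered the genes that differ between vitrified and fresh oocytes. The 17 such genes taken here were chosen on these same libraries, so they are no independent evidence. None passed between the concentrations, and 16 had a 95% interval within 2-fold, beside 77% of all tested genes, with log2 fold changes from -0.25 to 0.63. That share depended on abundance, at 85.3% in the middle bin and 96.7% in the highest, and most of the 17 lay in these bins. SNRPC, a protein of the U1 splicing particle, was at 379, 273 and 276 CPM at 5.6 M and 286, 244 and 275 CPM at 6.6 M, beside a mean of 79.5 CPM in fresh oocytes. Its log2 fold change of -0.21 had an interval of -0.62 to 0.20. PRDX2 and NPC2, described above, were the 2 with an unadjusted p under 0.05, beside 2% of all genes. PRDX2 was at 208 CPM in fresh oocytes, below both helium groups, and NPC2 at 20.3 CPM, above both. TIFA, an adaptor of innate immune signalling, was the third without overlap (9.52% of all genes), at 60.8 to 69.8 CPM and 77.2 to 113 CPM, with 158 CPM in fresh oocytes.

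The same step of concentration was measured in liquid nitrogen, with no library in common. There 0 genes (0%) passed edgeR's test at an adjusted p of 0.05, with 166 (1.97%) at an unadjusted p under 0.05, and DESeq2 also called 0 (172 without adjustment). Of the 169 helium genes with an unadjusted p under 0.05, 86 had the same sign in nitrogen and 3 also had an unadjusted p under 0.05 there. Over all genes 51.6% had the same sign in both coolants, and the correlation of the fold changes across genes, which are not independent replicates, was 0.049. The difference between the coolants in the effect of concentration, tested as an interaction, passed for 0 genes (0%), with 177 (2.1%) at an unadjusted p under 0.05 and 0 called by DESeq2 (182 without adjustment). Its intervals were wide, with a median half-width of 0.84 on the log2 scale. The nitrogen libraries held 1790900 to 7392972 counts, and 5 of the 6 were shallower than every helium library.

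FIGLA had the smallest unadjusted interaction p, 0.0016 by edgeR. In nitrogen its mean level was 14.2 CPM (11.9 to 18.4) at 5.6 M and 10.6 CPM (6.50 to 13.2) at 6.6 M, a log2 fold change of -0.41 beside 1.27 in helium. The next 3 genes had larger fold changes in nitrogen than in helium. INTU, a planar polarity effector of cilia, had a log2 fold change of 1.84 in nitrogen and 0.12 in helium, where it was at 6.31 to 7.68 and 5.61 to 9.31 CPM. Its level in nitrogen was low at 5.6 M, at 1.74 to 2.96 CPM, against 7.62 to 8.65 CPM at 6.6 M. SLC39A8, a zinc and manganese importer, had -2.03 in nitrogen and 0.25 in helium, and PTX3, a cumulus matrix protein, -2.22 and 0.89. SLC39A8 was at 4.06 to 5.67 CPM in nitrogen at 5.6 M and low at 6.6 M, at 1.02 to 1.26 CPM. PTX3 was low in both coolants, at 0 to 1.22 CPM in nitrogen at 6.6 M and at 0.980 to 5.61 CPM over the helium libraries. None of these 4 differences passed, with an adjusted p of 1 by edgeR for each.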

How the data were processed

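RNA sequencing libraries were grouped by the treatment in their labels, and 24616 genes were measured in each. The authors deposited raw counts per gene and library beside FPKM values, per the file headers. HISAT2 2.0.4, StringTie 1.3.0 and the build UMD3.1 are named, with no role or order, per the submitters' processing notes; for read filters, strand use and multi-mapping rules, the sources used here give nothing. Strand use matters for overlapping and antisense genes, whose reads could not be told apart without it. Gene length was recovered from count, FPKM and library total. Coordinates are those of the deposited table.

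In R 4.3.3, edgeR 4.0.16 (filterByExpr, TMM scaling, robust quasi-likelihood) was fitted to the counts of all 15 libraries in 5 groups, which share 1 estimate of the spread; 8441 genes were tested, with Benjamini-Hochberg adjustment and a threshold of 0.05. Levels are TMM-scaled CPM. Standard errors of log2 fold changes were derived from the fold change and the quasi-likelihood F statistic of the same fit. The 95% intervals were built on them, so both are approximate. Shares and detected genes were compared by exact permutation tests, two-sided. Chi-square over degrees of freedom between libraries of one helium group was 11 to 26.1, far above sampling noise. Helium libraries held 6346848 to 8569618 counts. The code was tested on simulated data.

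Named genes were those past the threshold, which none was, and then the 24 of smallest p with a symbol and a mean of 5 FPKM or more in the higher group; in each list up to 4 members with the smallest p, and for the interaction the 4 with a symbol and the smallest p, plus all markers. Genes that passed without a count filter were named after their values were seen. A named gene and a list member that met these rules are not reported here by name, but stay in the counts. Of 1108 symbols in the 22 lists, 955 were found in the table, 7 of them through a RefSeq synonym. The comparison, the lists and the rules were chosen with earlier results of these data known. Alternatives were DESeq2 1.42.0, voom of limma 3.58.1, RLE scaling, no filter, a filter of 50 counts in 3 libraries, no robust estimation, the helium libraries alone, and each library left out; the count of intervals within 2-fold was added after no gene had passed, and the marker sums without TIMP1 or SPP1 after the sums had been seen.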

Additional observations from a re-analysis of the deposited data

How the results depend on the processing

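No gene passed between the concentrations in helium under RLE scaling, the filter of at least 50 counts in 3 libraries (125 of 6783 genes at an unadjusted p under 0.05), estimation without robustness, DESeq2, limma-voom, the helium libraries alone, or with any 1 of the 6 libraries left out (0 to 0 genes). Without a filter on low counts 15 genes passed in helium, 3 in nitrogen and 2 for the interaction; the cause was not tested. In that fit FIGLA had a log2 fold change of 1.27 (adjusted p of 0.0253 by edgeR) and OXT 1.55 (0.0236), against 1 for both with the filter. With 1 library left out, the log2 fold change of OXT ranged from -0.14 (without 6.6 M library 2) to 1.97. The number of genes at an unadjusted p under 0.05 ranged from 27 (without 6.6 M library 2) and 48 (without 5.6 M library 5) to 367 (without 6.6 M library 1). Genes with a 95% interval within 2-fold numbered 5164 to 6525 with 1 library left out, 7532 in the helium libraries alone and 7393 (45.4%) without a filter. The mitochondrial difference ranged from -0.472 to 0.239 percentage points and that in detected genes from 9.67 to 270.2 with 1 library left out. No paired analysis was possible because the helium groups share only the replicate number 3. In nitrogen, where the numbers 1 to 3 recur, same-number deviations correlated at -0.006, 0.186 and -0.164. These values cannot decide whether libraries of the same number share an origin, which the labels do not state. The nitrogen fit with the replicate block called 0 genes (109 at an unadjusted p under 0.05 by edgeR).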
